A study of Homo sapiens with 14 samples.

Results

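The genes described here make, trim and bind hyaluronan, the long unbranched sugar polymer of the extracellular matrix, and the 7 listed were HAS2, HAS3, CD44, HYAL1, HYAL2, CEMIP and UGDH. They were matched by symbol to the probe sets that name 1 gene in the platform annotation, which covered 6 of the 7 among 19775 genes, and HYAL1 had no such probe set and was not analysed here. The genes were chosen with their expression in these Dox+ and Dox− cells at the 3 times sampled already known, so their differences between Dox+ and Dox− cells are given as a description, with no p-value, and the number that passed a test over all genes is set beside the share of all genes that did. The study asked what the p73 isoform TAp73β does in hepatocellular carcinoma cells. Total RNA of Hep3BTAp73β cells was hybridised to 54675-probe-set Affymetrix arrays, 1 array for each of 14 cultures. Dox+ cells received 1 µg/ml doxycycline, 2 cultures for 12 h, 2 for 24 h and 3 for 48 h, and the same numbers of Dox− cultures were left untreated for the same times. Hep3B is a liver cancer line that lacks p53. Dox− and Dox+ cells alike carried the doxycycline-switched TAp73β construct and the repressor vector and came from antibiotic-resistant colonies that were picked and expanded. Doxycycline without the construct was not measured on these arrays, so effects of the drug and of TAp73β cannot be told apart. The replicates are labelled as biological replicates.

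Hyaluronan is polymerised at the plasma membrane by the synthases HAS1, HAS2 and HAS3 from UDP-glucuronic acid and UDP-N-acetylglucosamine. UGDH makes the first of these sugars, and the hexosamine pathway makes the other. Secreted or surface hyaluronan is cut by hyaluronidases such as HYAL1 and HYAL2 and by the CEMIP system, and cells bind it through CD44, HMMR and other receptors. In the liver it is produced mainly by stellate cells and taken up by sinusoidal endothelial cells.

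The promoter sequences of HAS3 and UGDH are shown because these genes had the largest differences at 48 h in each direction. Each is the 250 bases before the RefSeq transcription start on GRCh38.p14, with no base of the transcript. The HAS3 window is chr16:69107290-69107539 on the plus strand and the UGDH window chr4:39527440-39527689 on the minus strand. Capitals mark 10-base stretches with at most 1 mismatch to the p53 family half-site.
HAS3: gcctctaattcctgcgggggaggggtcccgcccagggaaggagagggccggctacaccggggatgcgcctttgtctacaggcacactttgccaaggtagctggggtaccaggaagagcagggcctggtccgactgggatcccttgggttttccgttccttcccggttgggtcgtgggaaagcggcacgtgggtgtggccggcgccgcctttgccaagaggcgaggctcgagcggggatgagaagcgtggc
UGDH: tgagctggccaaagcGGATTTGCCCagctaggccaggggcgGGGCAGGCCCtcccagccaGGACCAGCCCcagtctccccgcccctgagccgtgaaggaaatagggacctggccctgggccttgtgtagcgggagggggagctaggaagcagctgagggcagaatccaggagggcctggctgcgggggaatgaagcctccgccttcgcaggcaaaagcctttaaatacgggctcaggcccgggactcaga
The half-site is the published p53 family consensus, which reads the same on both strands. The 300-base windows of the promoter table reach 50 bases past the start and include those of HAS3, CD44, HYAL1, HYAL2, CEMIP and UGDH. HAS2 had no window there and was not searched. An exact half-site was in 0 of the 6 windows and in 6.63% of all 35116 windows. A full site without spacer, which is 1 half-site directly followed by another, was in 0 of the 6 windows and in 6 of all windows. Pairs of half-sites with bases between them were not searched for. With 1 mismatch allowed, a looser search added after the exact one had been run, 3 of the 6 windows held a stretch, those of HYAL1, CEMIP and UGDH, against 63.7% of all windows. The HAS3 window had none, and its closest stretch had 2 mismatches. The UGDH stretches began 235, 209 and 190 bases before the start. These are matches of letters and not measured binding sites.

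Of the 6 genes measured, HAS3 was higher in Dox+ cells at each time, and HAS2 was lower at each time. UGDH was lower at 24 h and 48 h without overlap of the arrays. CEMIP was higher at 12 h and nearly equal later. CD44 and HYAL2 overlapped between Dox− and Dox+ cells at every time. The values of all 14 arrays are in the plot of levels by gene, and the plot of differences gives their standard errors.

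**Figure D1:**
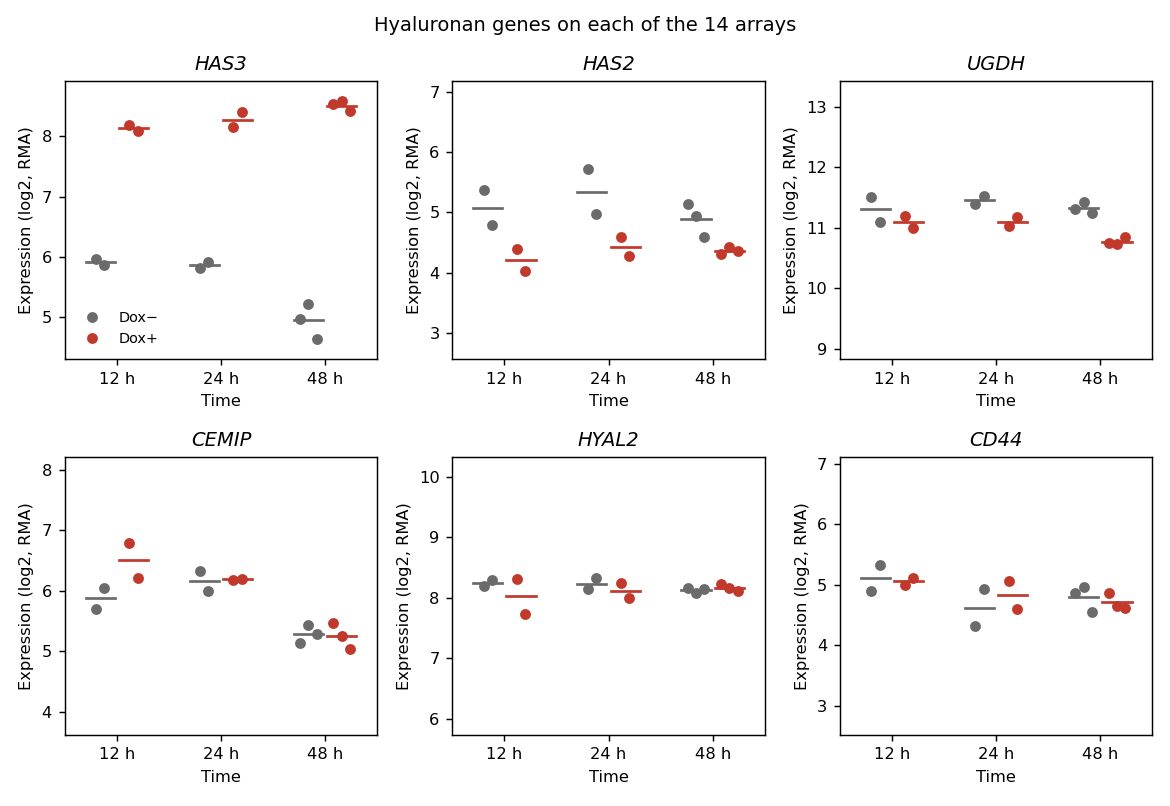
Expression of 6 hyaluronan genes on each array (y axis, log2 RMA values of the main probe set, the same span in every panel) (x axis, time after the start). Points are arrays, grey for Dox− and red for Dox+ cells, and short lines are group means. HAS3 lies between 8.09 and 8.58 on the Dox+ arrays and between 4.65 and 5.96 on the Dox− arrays, while CD44 and HYAL2 overlap at each time.

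HAS3 encodes the synthase isoform that in cell assays makes the shorter hyaluronan chains. Its main probe set read 5.96 and 5.86 (log2) on the Dox− arrays at 12 h and 8.19 and 8.09 on the Dox+ arrays. At 24 h the Dox− arrays read 5.81 and 5.92 and the Dox+ arrays 8.15 and 8.39. At 48 h the Dox− arrays read 4.98, 5.23 and 4.65 and the Dox+ arrays 8.53, 8.58 and 8.41. Every Dox+ array was above every Dox− array, whatever its time. In order of time the differences were 2.23 ± 0.15 (SE), 2.40 ± 0.14 and 3.55 ± 0.13 on the log2 scale, or 4.68-fold, 5.29-fold and 11.7-fold. Among all genes, 8, 16 and 10 of the 19775 genes had a larger difference at these times. The wider gap at 48 h came with both a lower Dox− mean and a higher Dox+ mean. The Dox− mean was 5.91, 5.87 and 4.95 in order of time, and the Dox+ mean 8.14, 8.27 and 8.51. Set against the Dox− cells of 12 h, the Dox+ cells of 48 h were 2.60 higher (log2), or 6.05-fold. Whether the differences at the 3 times are unequal was not tested. The other HAS3 probe set read at most 4.26 on any array, and its differences were 0.21 ± 0.20, 0.19 ± 0.19 and 0.00 ± 0.07 in the same order, with overlap each time. The probe sets of HAS3 therefore disagree, and the values above belong to the main one alone.

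HAS2 encodes the synthase isoform that makes very long chains and is the one required in the embryonic heart. Its main probe set read 5.37 and 4.79 (log2) on the Dox− arrays and 4.40 and 4.04 on the Dox+ arrays at 12 h. At 24 h the readings were 5.71 and 4.97 without and 4.59 and 4.28 with doxycycline. At 48 h they were 5.13, 4.94 and 4.59 without and 4.31, 4.43 and 4.36 with doxycycline. Dox+ arrays were below Dox− arrays at each time, opposite in direction to HAS3, and the lowest Dox− array at 48 h lay close to the Dox+ arrays. The differences were −0.86 ± 0.23, −0.91 ± 0.23 and −0.52 ± 0.12 in order of time, which is 1.82-fold, 1.88-fold and 1.44-fold lower. The second HAS2 probe set was also lower at 12 h and 24 h without overlap, with −0.25 ± 0.14 and −0.27 ± 0.13, and overlapped at 48 h, with −0.09 ± 0.09. Both probe sets thus had the same sign at each time, with smaller values for the second. The levels of HAS2 were low, at most 5.71 on any array, and whether they stand above background was not tested.

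UGDH oxidises UDP-glucose to the UDP-glucuronic acid that the synthases use and that the liver also uses for conjugation. It read 11.51 and 11.10 (log2) on the Dox− and 11.20 and 11.00 on the Dox+ arrays at 12 h, which overlapped. At 24 h it read 11.40 and 11.53 without and 11.02 and 11.18 with doxycycline. At 48 h it read 11.32, 11.42 and 11.25 without and 10.75, 10.72 and 10.84 with doxycycline. The arrays did not overlap at 24 h or 48 h. In order of time the differences were −0.21 ± 0.18, −0.36 ± 0.13 and −0.56 ± 0.07, the last being 1.47-fold lower.

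CEMIP encodes a secreted and endoplasmic reticulum protein needed for hyaluronan breakdown in skin fibroblasts. Its main probe set read 5.70 and 6.06 (log2) on the Dox− and 6.79 and 6.22 on the Dox+ arrays at 12 h, without overlap. At 24 h it read 6.33 and 5.99 without and 6.18 and 6.21 with doxycycline. At 48 h it read 5.14, 5.44 and 5.28 without and 5.46, 5.26 and 5.05 with doxycycline. Both conditions were lowest at 48 h, and Dox− and Dox+ arrays overlapped at 24 h and 48 h. The differences were 0.63 ± 0.22, 0.03 ± 0.15 and −0.03 ± 0.11 in order of time. The second CEMIP probe set had the opposite sign at 12 h, −0.30 ± 0.16 without overlap, and −0.17 ± 0.08 at 48 h with overlap. The higher CEMIP value at 12 h rests on 1 of the gene's 2 probe sets.

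HYAL2, a hyaluronidase anchored to the cell surface, had 1 probe set. It read 8.19 and 8.30 (log2) without and 8.31 and 7.74 with doxycycline at 12 h, and 8.14 and 8.33 against 8.24 and 7.99 at 24 h. At 48 h it read 8.16, 8.08 and 8.14 without and 8.23, 8.16 and 8.12 with doxycycline. The groups overlapped at each time, and 1 Dox+ array at 12 h was lower than all others. At 48 h the difference was 0.04, with a 95% interval from −0.09 to 0.18, so that a change of more than 0.18 in either direction lies outside this interval.

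CD44, the main cell-surface receptor for hyaluronan, had 13 probe sets, which all read between 3.05 and 5.33 (log2) on every array. The main one read 4.90 and 5.33 without and 5.00 and 5.12 with doxycycline at 12 h, and 4.31 and 4.94 against 5.06 and 4.60 at 24 h. At 48 h it read 4.86, 4.96 and 4.56 without and 4.87, 4.65 and 4.62 with doxycycline. The groups overlapped at each time, and the difference at 48 h was −0.08, with a 95% interval from −0.33 to 0.17. The levels of CD44 were low, and whether they stand above background was not tested. The overlap therefore does not tell an unchanged level from an absent signal. Over the 13 probe sets the differences at 48 h ran from −0.15 to 0.11, and 0 of them separated the arrays of Dox+ from those of Dox− cells. At 12 h they ran from −0.27 to 0.24 with 6 of 13 not overlapping, and at 24 h from −0.11 to 0.47 with 2 of 13 not overlapping. Over all genes 46.8% did not overlap at 12 h and 50.3% at 24 h, so nothing is read from these counts. The plot of all 21 probe sets shows the CD44 differences beside those of the other genes.

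**Figure D2:**
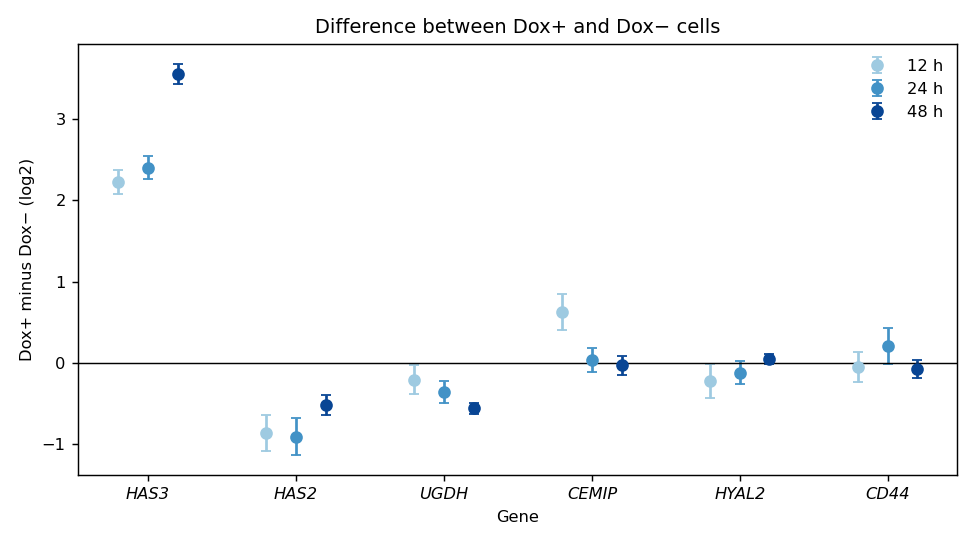
Difference between Dox+ and Dox− cells (y axis, log2) for 6 genes (x axis), with light, middle and dark blue for the early, middle and late time. Points are differences of group means and bars their standard errors, with 2 arrays a group at 12 h and 24 h and 3 at 48 h. HAS3 stands at 2.23, 2.40 and 3.55, HAS2 below 0 at each time and UGDH at −0.56 at 48 h.

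**Figure D3:**
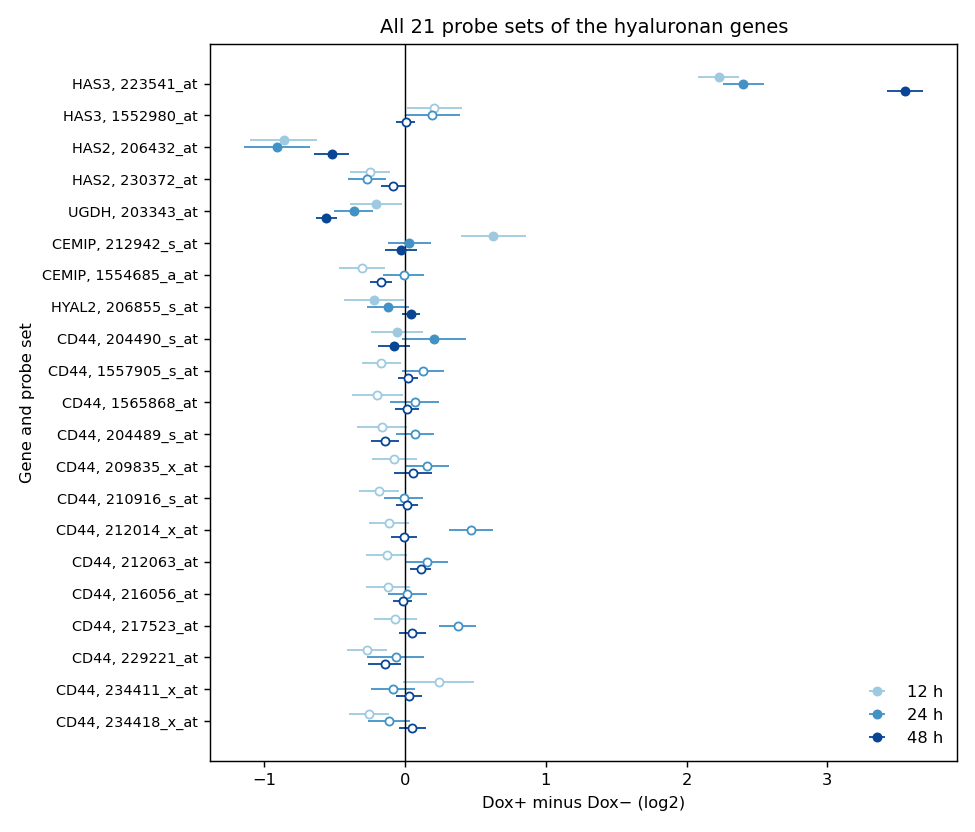
Difference between Dox+ and Dox− cells (x axis, log2) for each of the 21 probe sets of the 6 genes (y axis) at the 3 times, with standard errors. Filled points are the probe set used for the gene and open points the others. HAS3 has 1 probe set far from 0 and 1 at 0.00 at 48 h, and the 13 CD44 probe sets lie between −0.15 and 0.11 at that time.

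In limma's test over all genes (Benjamini-Hochberg adjustment, threshold 0.05), 1 of the 6 genes passed at 12 h, HAS3, higher in Dox+ cells. That test called 0.668% of all genes at 12 h, 0.647% of all genes being higher and 0.0202% lower. At 24 h 1 of the 6 passed, again HAS3, where 5.83% of all genes were called, 3.01% higher and 2.81% lower. At 48 h 3 of the 6 passed, HAS3 higher and HAS2 and UGDH lower, where 24.2% of all genes were called, 11.3% higher and 12.9% lower. Arrays of Dox+ and Dox− cells did not overlap for 3 of the 6 genes at each time, against 46.8%, 50.3% and 39.3% of all genes in order of time. The median size of the difference of the 6 genes was 0.43, 0.29 and 0.30 (log2) at the 3 times, and 0.17, 0.16 and 0.11 over all genes. Because the genes were selected with these contrasts known, nothing is read from their counts or from that size. HAS3 did not pass at 12 h without Dox− replicate 1, and HAS2 did not pass at 48 h with all 14 arrays in 1 fit or by the t-test of the methods. HAS2, CD44 and CEMIP had means under that of the median gene and are dropped by a filter on dim genes. HAS3 was kept, with a mean of 6.91 over all arrays. Its Dox− arrays read 4.65 to 5.96, under every array median (6.44 to 6.52), so it passes that filter through its Dox+ arrays.

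The other genes of hyaluronan metabolism and binding were tested, 43 measured of 48 listed. The synthase HAS1 was among those not analysed here. At 12 h limma called 0 of the 43 in either direction, with 1 higher and 3 lower at an unadjusted p under 0.05. After adjustment the t-test of the methods called 0 of all 19775 genes at 12 h and at 24 h. Its 0 for the 43 genes at those times therefore tells nothing about them. At 24 h limma called 2 higher and 0 lower, with 2 lower at an unadjusted p under 0.05. Over all genes it called 3.01% higher and 2.81% lower at 24 h. At 48 h it called 5 higher and 6 lower and left 32 that did not pass. These counts are close to those that the shares over all genes, 11.3% higher and 12.9% lower, would give for 43 genes. Nothing is therefore read from them about the 43 genes together. The roles below were not tested as groups, and their calls are given gene by gene. The median difference of the 43 genes was −0.03, −0.04 and −0.02 at the 3 times, beside −0.04, 0.02 and −0.02 over all genes.

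Among the 7 genes of precursor supply, 2 rose and 3 fell at 48 h. GNPNAT1, which acetylates glucosamine 6-phosphate, fell from a Dox− mean of 9.90 to a Dox+ mean of 9.29 (difference −0.61 ± 0.06, adjusted p = 1.55e-04 from limma). UAP1, which makes UDP-N-acetylglucosamine in the last step of the hexosamine pathway, fell from 11.52 to 10.98 (−0.53 ± 0.06, adjusted p = 3.16e-04). Each had its 3 Dox+ arrays below its 3 Dox− arrays, as did UGDH on the branch to the other sugar. PGM1, which interconverts glucose 1-phosphate and glucose 6-phosphate, fell by 0.33 ± 0.06 on the log2 scale (adjusted p = 0.00320). UGP2, which makes the UDP-glucose that UGDH oxidises, rose from 11.57 to 11.91 (0.34 ± 0.05, adjusted p = 0.00161). NAGK, which salvages N-acetylglucosamine, rose from 9.50 to 9.88 (0.38 ± 0.07, adjusted p = 0.00287). With all 14 arrays in 1 fit UGP2 did not pass (adjusted p = 0.230). The first enzyme of the hexosamine pathway, GFPT1, did not pass (−0.04 ± 0.06, adjusted p = 0.722). UXS1, which turns UDP-glucuronic acid into UDP-xylose, did not pass either (0.01 ± 0.06, adjusted p = 0.931).

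Among the 6 other genes of breakdown, 3 rose and 0 fell at 48 h by limma, with differences under 0.3 on the log2 scale. GUSB, the lysosomal β-glucuronidase, rose from 10.08 to 10.35 (0.27 ± 0.06, adjusted p = 0.0139). HEXA, a subunit of lysosomal β-hexosaminidase, rose from 9.22 to 9.43 (0.21 ± 0.07, adjusted p = 0.0445), and its value with another probe set was −0.01. HYAL4, a hyaluronidase-family enzyme that acts mainly on chondroitin sulphate, rose from 4.31 to 4.52 (0.21 ± 0.06, adjusted p = 0.0235), and the filter on dim genes drops it. CEMIP2, a cell-surface relative of CEMIP, was at 0.20 ± 0.08 and did not pass (adjusted p = 0.0995). With 1 array left out, some of these calls were lost while the differences kept their direction. GUSB did not pass without Dox− replicate 2 or Dox+ replicate 2 (differences 0.24 and 0.23, adjusted p = 0.0525 and 0.0600). HYAL4 did not pass without Dox− replicate 1 or 3 or Dox+ replicate 1 or 2 (0.19 to 0.21, adjusted p = 0.0557 to 0.0846), and HEXA without any 1 Dox− array or Dox+ replicate 2 or 3 (0.17 to 0.23, adjusted p = 0.0791 to 0.131).

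Of the 7 other receptors, HMMR was the 1 that passed at 48 h. HMMR is a hyaluronan-binding protein that also acts on the mitotic spindle in dividing cells. It fell from 11.01 to 10.40 (−0.61 ± 0.10, adjusted p = 0.00236), and its Dox− and Dox+ means were 11.01 and 10.99 at 12 h and 10.89 and 10.81 at 24 h. By the t-test of the methods it did not pass at 48 h (adjusted p = 0.0542). The endothelial receptor LYVE1 was at −0.18 ± 0.10 and TLR2, a pattern receptor, at 0.21 ± 0.12, neither past the test (adjusted p = 0.225 and 0.270). Among the 6 genes of CD44 linkage, splicing and ligand, 2 fell at 48 h. RDX, which ties CD44 to actin, fell by 0.36 ± 0.06 on the log2 scale (adjusted p = 0.00206) and ESRP1, an epithelial splicing factor that acts on CD44, fell by 0.31 ± 0.06 (adjusted p = 0.00516, and 0.0525 with all 14 arrays in 1 fit). The related linkers EZR and MSN were at 0.11 ± 0.06 and 0.03 ± 0.06 and did not pass (adjusted p = 0.255 and 0.803). In bulk RNA, fewer cells expressing a gene and less of its RNA per cell cannot be told apart.

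The 17 genes of the hyaluronan-binding matrix had 0 calls at 48 h by limma. At 24 h 2 of them were higher in Dox+ cells, beside 3.01% of all genes. HABP2, a plasma serine protease that binds hyaluronan, rose from 7.12 to 7.97 (0.85 ± 0.15, adjusted p = 0.0143), and BCAN, the proteoglycan brevican, from 7.02 to 7.71 (0.70 ± 0.15, adjusted p = 0.0293). The Dox− mean of BCAN was 7.28, 7.02 and 7.69 in order of time, and its Dox+ mean 7.42, 7.71 and 7.60. At 48 h HABP2 was at 0.36 ± 0.12 (adjusted p = 0.0531) and BCAN at −0.08 ± 0.09 (adjusted p = 0.569). Neither difference passed without 1 of the 24 h arrays, HABP2 without Dox− replicate 1 (adjusted p = 0.0690) and BCAN without Dox− replicate 2 or either Dox+ array (adjusted p = 0.0574 to 0.0924).

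**Figure D4:**
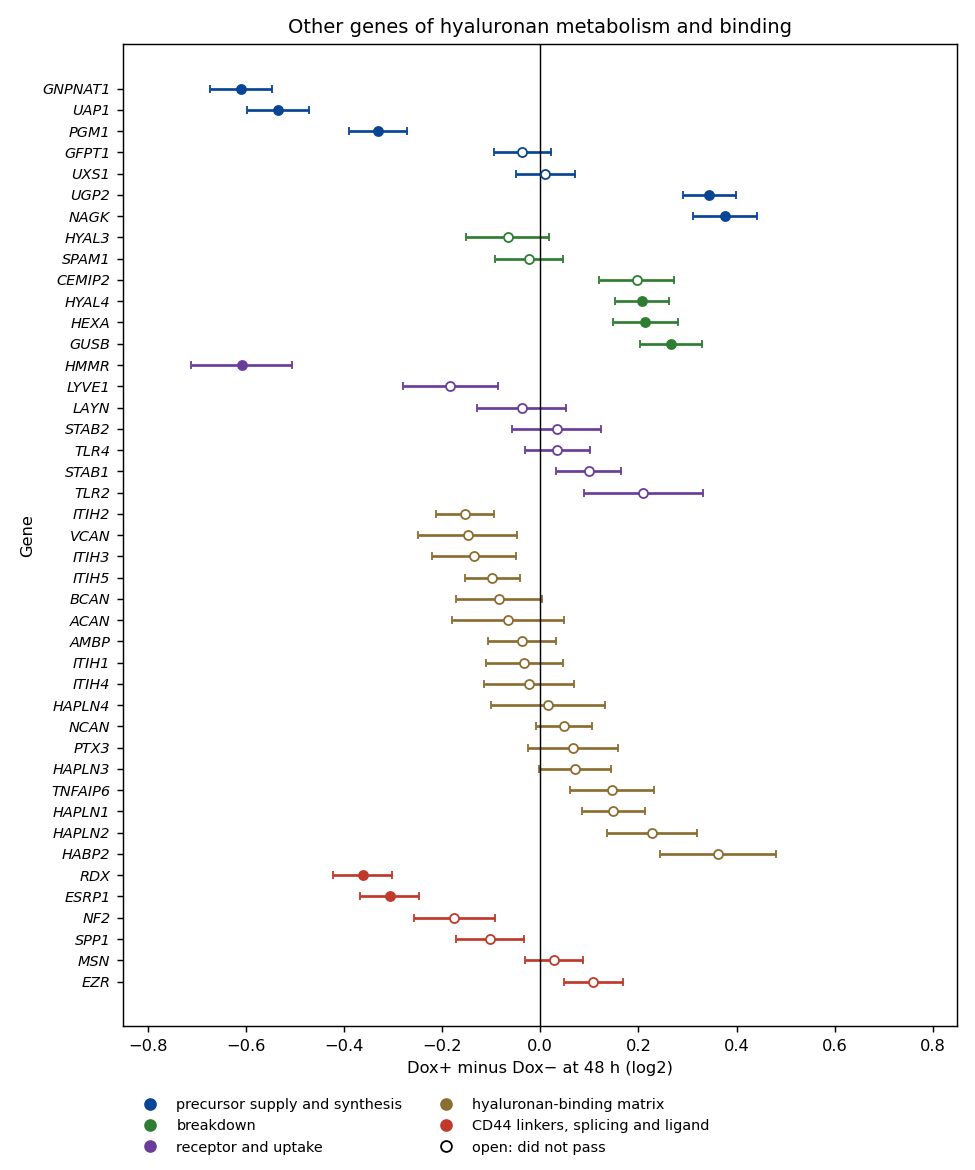
Difference between Dox+ and Dox− cells at 48 h (x axis, log2, 3 arrays a group) for the 43 other genes of hyaluronan metabolism and binding (y axis), coloured by role, with standard errors. Filled points passed limma's test and open points did not. GNPNAT1, UAP1 and HMMR lie near −0.6, and the filled points of the breakdown group all lie above 0.

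Time in culture was compared in the Dox− cells alone. These Dox− arrays are also the controls of the comparisons above, and the 6 genes were chosen with their levels known, so their changes over time are again a description with no p-value. The labels give no array run, so that any difference between runs of the 3 times was not tested. From 12 h to 24 h the t-test of the methods called 0 of the 6 and 0 of all genes. Limma called 0 of the 6 there and 0.00506% of all genes. CD44 had the largest change of the 6 from 12 h to 24 h, −0.49 ± 0.22 on the log2 scale, with overlap. From 12 h to 48 h limma called 2 of the 6, HAS3 and CEMIP, both lower at 48 h, where 19.9% of all genes were called. The HAS3 change was −0.96 ± 0.15 on the log2 scale, all 3 arrays of 48 h being below both arrays of 12 h. The CEMIP change was −0.59 ± 0.15, also without overlap. Both changes are those of the main probe set alone, and the second probe sets were not compared between times. HAS2 was at −0.19, CD44 at −0.32, HYAL2 at −0.12 and UGDH at 0.02. Over the alternative settings HAS3 lay between −1.10 and −0.80 and CEMIP between −0.77 and −0.41, the smallest CEMIP value being that without Dox− 12 h replicate 2. CEMIP was not called without that array or without any 1 of the 48 h Dox− arrays.

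In the test of the same contrast 5 of the 43 other genes rose and 6 fell, beside 19.9% of all genes called in either direction. ITIH2 and AMBP, chains of the plasma inter-α-inhibitor that binds hyaluronan, rose by 0.59 ± 0.10 and 0.47 ± 0.10 (adjusted p = 0.00879 and 0.0158). The related ITIH1, ITIH3, ITIH4 and ITIH5 were at −0.13, −0.12, −0.37 and −0.05 and did not pass. PGM1 rose by 0.54 ± 0.12 in Dox− cells (adjusted p = 0.0167), while its Dox+ mean was 9.13 at 12 h and 9.02 at 48 h. HABP2 fell by 0.79 ± 0.15 (adjusted p = 0.0131).

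Over the 14 arrays the levels of HAS3 were most like those of RASSF6, CHST3 and PFKP, with Pearson's r of 0.987, 0.986 and 0.984. CHST3 sulphates chondroitin, another matrix glycosaminoglycan, and PFKP is the platelet phosphofructokinase. For HAS2 the closest genes were ADAMTS6, EXOSC9 and DTL, with r of 0.919, 0.907 and 0.882. For UGDH they were ECE2, FTSJ1 and GTSE1, with r of 0.941, 0.934 and 0.933, and for CEMIP they were VDR, ZPLD1 and GSPT1, with r of 0.925, 0.917 and 0.904. CD44 was most like LOC100288123, LINC00482 and TPT1-AS1 (r of 0.922, 0.869 and 0.860), and HYAL2 most like ZNF837, HOXB9 and PTOV1 (r of 0.890, 0.840 and 0.829). Among the 6 genes, HAS2 and UGDH had r of 0.72, HAS3 and UGDH −0.75 and HAS2 and HAS3 −0.71. These coefficients are descriptions, since the arrays share 3 times and both treatments and the genes most alike were picked from 19775.

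TP73, which the construct supplies, had its 7 Dox+ arrays between 7.89 and 8.30 (log2) and its 7 Dox− arrays between 5.82 and 6.08. The array medians ran from 6.44 to 6.52. Albumin read from 14.30 to 14.44 on all arrays, and 4 of the 5 hepatocyte markers measured passed at 48 h, with AFP, APOA1 and TF lower (differences −0.40, −0.86 and −0.42) and SERPINA1 higher (0.54). Of the markers of other cells, 1 of 5 fibroblast genes passed (LUM, 1.23 higher), 1 of 3 leukocyte genes (ITGAM, 2.21 higher, with PTPRC between 3.44 and 3.88 on all arrays) and 0 of 4 endothelial genes. Over all genes 24.2% passed at 48 h. The mean level of the fibroblast list was 6.28 to 6.55 on the Dox− and 6.33 to 6.61 on the Dox+ arrays, that of the leukocyte list 4.69 to 5.10 and 5.16 to 5.66, and that of the endothelial list 4.61 to 5.00 and 4.64 to 4.85. The higher leukocyte mean in Dox+ cells came with ITGAM, since CD3E and PTPRC were at 0.09 and 0.12 at 48 h and did not pass (adjusted p = 0.584 and 0.475).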

How the data were processed

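RNA of 14 Hep3BTAp73β cultures was measured on Affymetrix U133 Plus 2.0 arrays. The authors deposited log2 values after RMA (R 3.5.1 per the submitters' processing notes), having excluded outlier arrays according to the methods. No further normalization was applied. Of 54675 probe sets, 62 controls were left out, 41091 named 1 gene (41037 matched by Entrez identifier), and the probe set with the highest mean stood for each of 19775 genes. The arrays name no build, so coordinates are given only for the RefSeq promoter windows.

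Dox+ and Dox− arrays of 1 time, and the 7 Dox− arrays together, were compared in R 4.3.3 by limma 3.58.1 (lmFit, then default eBayes, two-sided, Benjamini-Hochberg adjustment, threshold 0.05), which was tested on simulated data. Intervals are at 95% from the same fit. Python 3.11.15 read the promoter windows, and matplotlib 3.10.9 was used for plots. The number of arrays limits the precision. The alternatives comprised a single fit of the 14 arrays, a filter on dim genes (mean under that of the median gene) and other probe set choices. Quantile normalization, other eBayes options, a replicate block, the methods' t-test and each array left out were the others. That t-test is Student's, which the methods name among their general statistics. For the arrays the methods name class comparison in BRB-ArrayTools, which was not rerun here.

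The 7 genes and all gene lists were chosen with earlier results of these data known. Named were all 7 genes, TP73, list genes past the test at 48 h or only at 12 h or 24 h, the 3 genes most like each of the 6 in level, and the markers. CEMIP2, GFPT1, UXS1, LYVE1, TLR2, EZR, MSN, HAPLN2, HAPLN3, ITIH3 and TNFAIP6 were named after their values were seen. So were the untreated changes of ITIH1, ITIH2, ITIH3, ITIH4, ITIH5, AMBP, PGM1 and HABP2.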

Additional observations from a re-analysis of the deposited data

Results flagged for a closer look

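Opposite directions at different times, with every Dox+ array on one side of every Dox− array at both, were seen for 9 of the other genes of hyaluronan metabolism and binding. At a single time 46.8%, 50.3% and 39.3% of all genes had arrays without overlap, in either direction (12 h, 24 h, 48 h). The share of all genes with opposite directions at different times was not counted, so nothing is read from the number 9. The differences, Dox+ minus Dox− on the log2 scale, are given without a test between times, and the difference was not tested for any of the 9. PGM1 was at 0.33 at 12 h and −0.33 at 48 h, and HEXA at −0.17 at 24 h and 0.21 at 48 h, of which the 48 h values alone passed limma's test. None of the following values passed. GFPT1 was at 0.25 at 12 h and −0.27 at 24 h. The receptors LYVE1 and TLR2 were at −0.27 and −0.17 at 12 h and at 0.22 and 0.13 at 24 h. The matrix genes HAPLN3 and ITIH3 were at −0.57 and −0.15 at 12 h and at 0.16 and 0.30 at 24 h. HAPLN2 and TNFAIP6, also of the matrix, were at −0.22 and −0.31 at 12 h and at 0.23 and 0.15 at 48 h.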

How the results depend on the processing

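Of the 6 measured genes, HAS3 passed in 12 of 14 settings at 12 h, 14 of 15 at 24 h and 16 of 16 at 48 h, UGDH in 16 of 16 and HAS2 in 13 of 15 at 48 h, main setting included. The filter on dim genes is 1 of these settings and keeps HAS3 through its Dox+ arrays, so nothing is read from it for HAS3. The number of the 6 genes that passed at 12 h was 2 with all 14 arrays in 1 fit, 0 with the methods' t-test and 0 to 1 with 1 array left out (0 without Dox− replicate 1). At 24 h it was 2 with all 14 arrays, 2 without _x_at probe sets, 3 with trend and robust options, 0 with the t-test and 1 to 2 with 1 array left out (2 without Dox− replicate 2 or Dox+ replicate 1). Among the Dox− cells, 48 h against 12 h, it was 1 without dim genes, 0 with the t-test and 1 to 2 with 1 array left out (1 without Dox− 12 h replicate 2 or any 48 h replicate). Of the other 43 genes, 1 was lower at 12 h with all 14 arrays, 0 were higher at 24 h with the t-test and 1 to 2 with 1 array left out, and 4 were lower at 24 h with the probe set of largest interquartile range and 2 with trend and robust options. At 48 h 2 were higher with all 14 arrays and 3 to 4 with 1 array left out (3 without Dox− replicate 1, Dox− replicate 3 or Dox+ replicate 2). HEXA at 48 h was −0.0058 (adjusted p = 0.981) with the probe set of largest interquartile range and lost its call in 9 of its 15 alternatives besides, and HYAL4 in 6 of 14, BCAN at 24 h in 4 of 14, HABP2 at 24 h in 2 of 14, GUSB in 2 of 15 and UGP2, HMMR and ESRP1 in 1 of 15 each. GNPNAT1, UAP1, PGM1, NAGK and RDX kept theirs in all 15. The cause was not tested in any of these. At 12 h and 24 h the methods' t-test called 0 of all genes after adjustment, so a call lost with it there is not particular to the gene.

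The labels number the replicates and do not say whether equal numbers pair the samples. Deviations of same-numbered Dox− and Dox+ arrays from their group means correlated at 0.25 at 12 h, −0.11 at 24 h and 0.109, 0.0892 and 0.102 at 48 h, where every array correlated best with its own number, a hint from the data and not the design. With the replicate block the number of the 6 genes that passed was 2 at 12 h, 2 at 24 h, 3 at 48 h and 1 among Dox− cells from 12 h to 48 h. With the numbers crossed at 24 h, a pairing added after the data were seen, it was 2.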
